A study of Homo sapiens with 14 samples.

Results

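The 10 genes described here encode the transcription factors of the AP-1 family and of the immediate early response, and were taken by symbol from the deposited count table: *FOS*, *FOSB*, *FOSL2*, *JUN*, *JUNB*, *JUND*, *ATF3*, *EGR1*, *IER2* and *NR4A1*. All 10 were found, each as a single row among 61541 genes, and all 10 were among the 18963 genes abundant enough to be tested. The libraries were made from polyadenylated RNA of Jurkat, a human T-cell acute lymphoblastic leukaemia line, and fell into 5 groups. One arm holds KSRi (n = 3), in which APS-2-79, an inhibitor of KSR, was applied, and its solvent control DMSO (n = 3). In the other arm, cells carrying KSR2 guide 1 (n = 3) or KSR2 guide 2 (n = 3) had cells with a non-targeting guide as their control (NT, n = 2). The labels name the genetic method in conflicting ways (CRISPR knockout in the titles, CRISPR interference in the design text, a hairpin in the control's library names), and they give no dose, treatment time, clone or guide sequence. Since the inhibitor arm and the guide arm each have a control of their own, a level set across the arms mixes transduction, culture and handling, which cannot be told apart here.

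AP-1 is a family of basic leucine zipper dimers. Jun proteins pair with each other or with a Fos or ATF partner, while Fos proteins need a partner from outside their own group, so the supply of Jun and Fos transcripts bears on which dimers can form. Many of these genes are immediate early genes, which are transcribed from existing factors within minutes of a stimulus and whose mRNAs decay fast. In the classical route ERK phosphorylates the ternary complex factors at serum response elements, which drive *FOS* and *EGR1*. JNK and p38 act on JUN and ATF proteins, and the amino acid and unfolded protein responses raise *ATF3* through ATF4. KSR1 and KSR2 are scaffolds that bring RAF, MEK and ERK together.

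Sequence shared by the genes was examined first, in the windows of 250 bases before to 50 after the start that RefSeq gives (GRCh38.p14). All 10 genes matched, and 35116 promoter windows served as the background. A cAMP-response-like site, TGACNTCA on either strand, stood in the windows of *JUN*, *JUND* and *ATF3*, the 3 genes that rose with the inhibitor (below), and in 0 of the other 7, against 7.72% of all windows. This motif was picked after the changes were known, so the match is a description only. Only exact matches were counted. Near matches were left out, such as TGACGTTT in the *FOS* window, TGACGTAA in the *FOSB* window and TGACGTGA in the *FOSL2* window. The *EGR1* window holds TCACGTCA, which reads TGACGTGA on the other strand. The split between these genes and the others therefore depends on the exact-match rule. The *JUND* match, 200 to 193 bases before the start, is the full cAMP response element TGACGTCA (1.85% of all windows), and the matches of *JUN* (67 to 60 bases before) and *ATF3* (123 to 116 bases before) read TGACATCA. *EGR1* holds 2 CArG boxes, the core of a serum response element (CC, 6 bases of A or T, GG), which 1.29% of windows hold at least once and 0.0313% hold 2 or more times. It also holds the EGR site GCGNGGGCG, as do 9.43% of windows. The windows of *FOS*, *FOSB* and *JUNB* hold a TATAAA element (11.5% of all windows), and the *FOSL2* window holds the AP-1 site TGANTCA just after the start (7.71%). Sites more than 250 bases before a start were not examined, so a CArG box of *FOS* there would be missed. The RefSeq windows of *ATF3* and *NR4A1* lie at or near the upstream end of each gene, and starts further downstream were not examined. The 250 bases before the start are given for the 3 genes that share the site and for *EGR1*, 5′ to 3′ on the gene's strand, with TGACNTCA, CArG boxes, TGANTCA or TATAAA in capitals.
JUN, chr1:58784048-58784297, minus strand: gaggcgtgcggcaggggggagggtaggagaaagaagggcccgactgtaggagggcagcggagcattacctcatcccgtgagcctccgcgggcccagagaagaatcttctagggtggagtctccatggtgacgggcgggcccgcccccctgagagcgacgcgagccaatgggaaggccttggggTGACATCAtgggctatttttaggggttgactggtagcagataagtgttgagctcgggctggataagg
JUND, chr19:18281623-18281872, minus strand: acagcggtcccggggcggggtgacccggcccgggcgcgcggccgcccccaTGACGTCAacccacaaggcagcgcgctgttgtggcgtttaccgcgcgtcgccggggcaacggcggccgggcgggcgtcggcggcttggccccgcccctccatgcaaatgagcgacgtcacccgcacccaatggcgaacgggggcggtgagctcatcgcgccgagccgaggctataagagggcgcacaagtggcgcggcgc
ATF3, chr1:212565157-212565406, plus strand: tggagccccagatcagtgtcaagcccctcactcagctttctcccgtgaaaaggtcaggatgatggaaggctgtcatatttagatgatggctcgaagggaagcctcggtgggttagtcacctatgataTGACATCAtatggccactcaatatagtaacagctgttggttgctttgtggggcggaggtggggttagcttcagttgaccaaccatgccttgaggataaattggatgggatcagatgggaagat
EGR1, chr5:138465229-138465478, plus strand: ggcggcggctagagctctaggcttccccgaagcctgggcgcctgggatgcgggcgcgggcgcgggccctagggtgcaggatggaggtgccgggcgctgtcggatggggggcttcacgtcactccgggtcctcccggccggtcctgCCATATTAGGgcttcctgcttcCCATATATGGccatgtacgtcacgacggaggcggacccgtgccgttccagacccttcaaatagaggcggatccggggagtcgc

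AU-rich pentamers, ATTTA in DNA letters, mark mRNAs for rapid decay, and were counted in the 3′ UTR of the GENCODE transcript with the longest coding sequence. *FOSL2* had 9 in 4864 bases, *FOS* 5 in 806, *FOSB*, *JUN*, *ATF3* and *NR4A1* 3 each, *JUNB* 2, *JUND* and *EGR1* 1 each, and *IER2* 0. Of 19133 genes with such a UTR, 35.6% had at least 3. By density *FOS* was highest at 6.2 pentamers per kb, against a median of 1.33 over all genes. The stretch of the *FOS* UTR with the most pentamers, with ATTTA in capitals, is shown because *FOS* had the highest density of the 10.
FOS 3′ UTR, chromosome 14: aaacgttttattgtgtttttaATTTATTTA

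Library totals were 21710466 to 45897075 counts in KSRi, 27099107 to 43027877 in DMSO, 33919545 to 38801454 with guide 1, 29979565 to 42717502 with guide 2 and 25794010 to 34535929 in NT. Levels below are CPM, that is counts scaled to a common library size after TMM correction, and tests are edgeR quasi-likelihood tests over all genes with Benjamini-Hochberg adjustment, called at an adjusted p under 0.05. The transcript aimed at by the guides, *KSR2*, averaged 0.541 ± 0.11 CPM with guide 1 and 0.766 ± 0.0492 CPM with guide 2 (SD, n = 3 each), against 29.5 ± 0.786 CPM in NT (SD, n = 2). All 10 T-lineage markers examined were tested, and their summed level was 2609 to 3299 CPM in KSRi, 2613 to 2689 CPM in DMSO, 2376 to 2691 CPM with guide 1, 2565 to 2666 CPM with guide 2 and 2498 to 2557 CPM in NT. The myeloid markers summed to at most 0.879 CPM and the erythroid markers to at most 0.0504 CPM in any library. The B-cell list was at 21.8 to 68 CPM, of which *CD79A* alone was abundant enough to test. KSRi libraries differed from each other more than DMSO libraries did, with a chi-square per degree of freedom of 17.2 to 49.9 between KSRi pairs and 5.83 to 7.78 between DMSO pairs. The mitochondrially encoded share reached 2.51% in KSRi and 1.45% in DMSO, 2.37% with guide 1, 2.71% with guide 2 and 2.5% in NT. In bulk RNA, fewer cells of a kind and less RNA per cell cannot be told apart.

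*JUND* and *IER2* supplied most of the transcript of the set in every group. Per kb of exon, *JUND* averaged 65.2 CPM in KSRi and 33.4 CPM in DMSO, and *IER2* averaged 22.3 CPM in KSRi and 22.3 CPM in DMSO. *JUNB* followed with 9.93 CPM per kb in KSRi and 10.3 in DMSO. *JUN* stood at 4.91 CPM per kb in KSRi and 2.82 in DMSO, and *ATF3* at 5 CPM per kb in KSRi and 1.75 in DMSO. *FOSL2*, *NR4A1* and *EGR1* lay at 0.987, 0.691 and 1.119 CPM per kb in KSRi and at 1.18 or above in DMSO, where *FOSL2* was the highest of them. The DMSO libraries of *NR4A1* and *EGR1* overlapped. The Fos family as a whole was scarce, and *FOS* and *FOSB* came last in DMSO, at 0.0668 and 0.141 CPM per kb. In NT the order was the same for the top 3, but *ATF3* (6.44 CPM per kb) and *EGR1* (5.16) stood above *JUN* (3.2), which ranked above both in DMSO. Lengths are the union of GENCODE exons, so these levels depend on which exons Jurkat cells use.

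**Figure D1:**
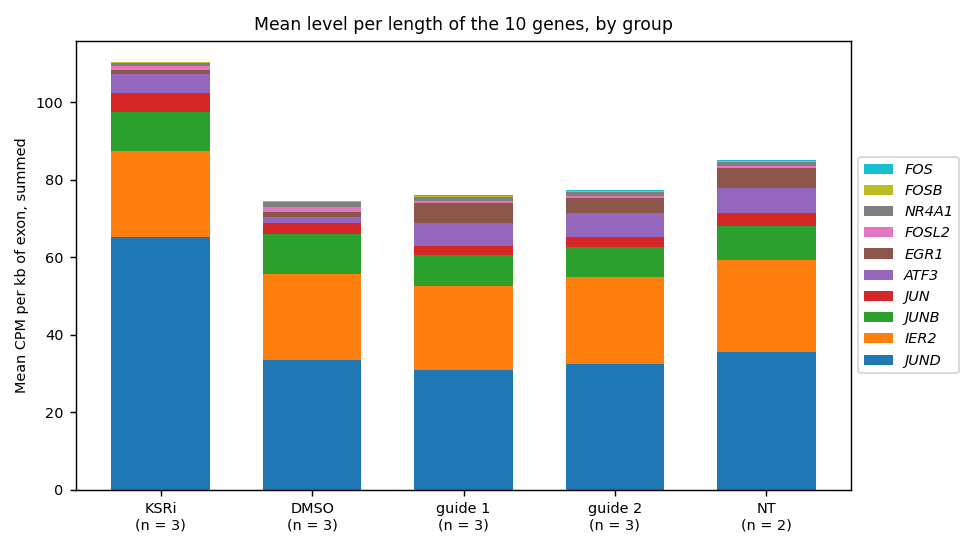
Mean level of each of the 10 genes per kb of exon (CPM per kb, vertical axis, starting at 0), stacked by group with n libraries each. *JUND* and *IER2* form most of every bar, and the KSRi bar sums to 110 CPM per kb against 74.5 in DMSO.

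The comparison of KSRi with DMSO asked how the set answered the inhibitor. *ATF3*, *JUND* and *JUN* rose, *NR4A1* and *FOSL2* fell, and *EGR1*, *IER2*, *JUNB*, *FOS* and *FOSB* did not pass the test. In all, 5 of 10 genes were called where 40.7% of all tested genes were called, 3 higher (22% of all genes) and 2 lower (18.7%). The libraries of the groups did not overlap for 6 of 10 genes, 4 above and 2 below, as for 46.9% of all genes. With the background so high, the count of called genes is near what the whole transcriptome shows. The median log2 change over the 10 genes was 0.04, against 0.02 over all genes.

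The Jun family gave the largest gain in transcript. *JUND* (ENSG00000130522; chromosome 19, 18279760 to 18281622, minus strand), the most broadly expressed Jun protein and the least inducible one, had 110, 127 and 128 CPM in KSRi, against 65.3, 56.8 and 64.3 CPM in DMSO. All 3 KSRi libraries lay above all 3 DMSO libraries. *JUND* rose 1.95-fold, with a log2 change of 0.97 and an SE of 0.08 (edgeR adjusted p = 1.54e-07). *JUN* (ENSG00000177606; chromosome 1, 58780788 to 58784327, minus strand), which encodes the main transactivating Jun protein and a target of JNK, had 16.3, 17.9 and 17.9 CPM in KSRi, against 10.8, 9.69 and 9.55 CPM in DMSO. Again the groups did not overlap, and *JUN* rose 1.74-fold (log2 change 0.80, SE 0.08, edgeR adjusted p = 1e-06). *JUNB* (ENSG00000171223; chromosome 19, 12791496 to 12793315, plus strand), a weaker activator than JUN, had 16.2, 18.5 and 19.5 CPM in KSRi, against 19.5, 18.4 and 18.3 CPM in DMSO. The *JUNB* libraries overlapped, and the log2 change was −0.06 (95% interval −0.26 to 0.15, edgeR adjusted p = 0.675). Summed per kb, the Jun family stood at 80 ± 6.58 CPM per kb in KSRi and 46.5 ± 2.82 CPM per kb in DMSO (SD, n = 3 each). *JUND* made up 81.4% ± 0.26 of that sum in KSRi and 71.7% ± 1.33 in DMSO, and *JUNB* 12.4% ± 0.279 in KSRi and 22.2% ± 1.04 in DMSO (SD, n = 3 each).

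Of the 3 Fos genes 0 were called higher and 1 was called lower, where 22% of all tested genes were higher and 18.7% lower. *FOSL2* (ENSG00000075426; chromosome 2, 28392448 to 28417312, plus strand), which encodes FRA2 and was the most abundant Fos transcript, had 7.25, 6.91 and 7.04 CPM in KSRi, against 10.4, 9.72 and 10.2 CPM in DMSO. Every KSRi library lay below every DMSO library, and *FOSL2* fell 1.43-fold (log2 change −0.52, SE 0.09, edgeR adjusted p = 0.000304). *FOS* (ENSG00000170345; chromosome 14, 75278774 to 75282230, plus strand), the prototype immediate early gene, had 0.235, 0.277 and 0.161 CPM in KSRi, against 0.126, 0.265 and 0.259 CPM in DMSO. These values rest on 3 to 11 counts per library in KSRi and 3 to 10 in DMSO. The 95% interval of the *FOS* log2 change was wide, from −0.75 to 0.89, and a change within it in either direction is not excluded. *FOSB* (ENSG00000125740; chromosome 19, 45467995 to 45475179, plus strand) had 1.07, 1.34 and 1.24 CPM in KSRi, against 0.544, 0.827 and 0.983 CPM in DMSO. Its libraries did not overlap, but at a log2 change of 0.59 (SE 0.30) the edgeR adjusted p = 0.125 missed the threshold. The *FOSB* gene overlaps *ERCC1* on the other strand, which had 26674 counts in all libraries against 600 for *FOSB*, and *JUNB* overlaps *HOOK2* in the same way. Whether reads were counted by strand is unknown here, so reads of these pairs cannot be told apart. Summed per kb, the Fos family stood at 1.28 ± 0.018 CPM per kb in KSRi and 1.62 ± 0.0563 CPM per kb in DMSO (SD, n = 3 each).

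*ATF3* (ENSG00000162772; chromosome 1, 212565334 to 212620777, plus strand), a stress-induced ATF/CREB protein that dimerizes with Jun proteins and often represses, had the largest change of the set. It had 16.5, 22 and 22.1 CPM in KSRi, against 7.25, 7.01 and 6.99 CPM in DMSO. Here too the groups were apart, and *ATF3* rose 2.85-fold (log2 change 1.51, SE 0.12, edgeR adjusted p = 8.30e-08). A larger change in either direction was seen for 3.72% of all tested genes. The ATF4 response list, *ATF4* and 9 of its targets, also rose, 10 of 10 against 22% of all tested genes called higher, with a median log2 change of 0.87. Among them *VLDLR*, a lipoprotein receptor gene, averaged 64.8 CPM in KSRi and 22.9 CPM in DMSO. *CHAC1*, which degrades glutathione, changed by 2.80 (SE 0.16) and *SESN2*, a leucine sensor of the TOR pathway, by 1.71 (SE 0.14) on the log2 scale. *ATF4* itself, named after its values were seen, stood at 786 CPM in KSRi and 447 CPM in DMSO (log2 change 0.82, edgeR adjusted p = 5.96e-07). The part of *ATF4* in the change of *ATF3* was not tested.

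**Figure D2:**
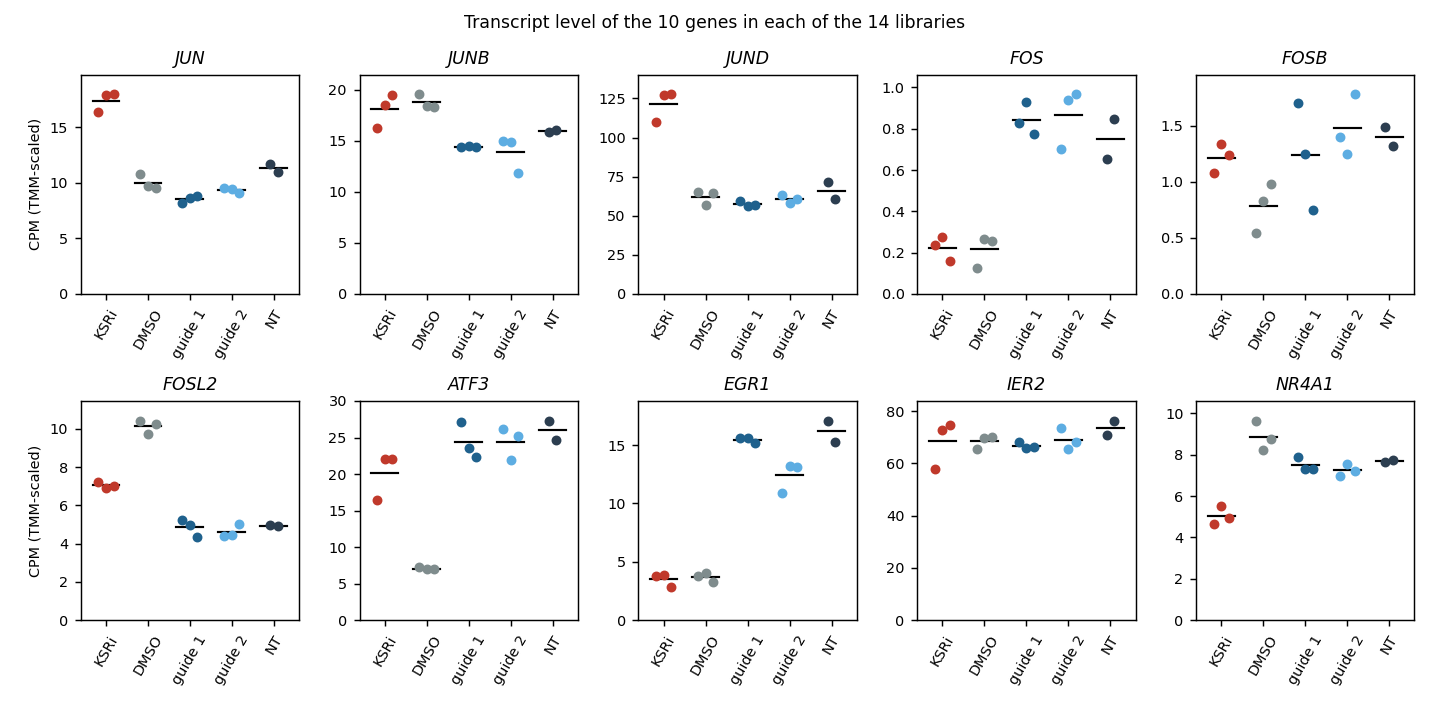
CPM of the 10 genes in each library (points) with the group mean (bar), every panel starting at 0. *JUN*, *JUND* and *ATF3* lie higher in KSRi than in DMSO, *FOSL2* and *NR4A1* lie lower, and *EGR1* and *FOS* sit at a low level in KSRi and DMSO and a higher one in all 3 guide-arm groups.

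Of the remaining immediate early factors, *NR4A1* changed and *EGR1* and *IER2* did not pass the test. *NR4A1* (ENSG00000123358; chromosome 12, 52022832 to 52059507, plus strand), the orphan nuclear receptor NUR77 that T-cell receptor signals induce, had 4.67, 5.52 and 4.94 CPM in KSRi, against 9.63, 8.2 and 8.75 CPM in DMSO. The groups did not overlap, and *NR4A1* fell 1.74-fold (log2 change −0.80, SE 0.10, edgeR adjusted p = 7.79e-06). *EGR1* (ENSG00000120738; chromosome 5, 138465490 to 138469315, plus strand), a zinc finger factor driven by ERK through serum response elements, had 3.83, 3.86 and 2.85 CPM in KSRi, against 3.77, 4.03 and 3.29 CPM in DMSO. The *EGR1* groups overlapped and the 95% interval of the log2 change, −0.32 to 0.25, left room for a modest change in either direction (edgeR adjusted p = 0.859). *IER2* (ENSG00000160888; chromosome 19, 13150415 to 13154908, plus strand), a short nuclear immediate early protein, had 57.8, 72.9 and 74.7 CPM in KSRi, against 65.6, 69.5 and 69.9 CPM in DMSO. Its groups overlapped, and its log2 change was 0.00 (95% interval −0.18 to 0.18, edgeR adjusted p = 0.999).

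KSRi replicate 1 was the lowest KSRi library for *JUN*, *JUNB*, *JUND*, *ATF3*, *IER2*, *FOSB* and *NR4A1*. In that library 3 of 10 genes lay above their KSRi mean, with a median deviation of −0.12 on the log2 scale against −0.03 over all genes, and its mitochondrially encoded share was 2.51%, the highest of the KSRi libraries. Its part in the results was not tested beyond leaving it out, which kept 5 of 10 genes called, with a log2 change of 1.64 for *ATF3* and 1.03 for *JUND*. Over all genes, leaving out 1 KSRi or DMSO library gave 6209 to 8928 called genes, against 7712 with every library.

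Other genes around the set were read from lists of known roles, and each list's counts stand beside the same background, 22% of all tested genes called higher and 18.7% called lower in KSRi. The 8 tested further AP-1 family members had a median log2 change of 0.03, and 2 were called higher and 2 lower. *JDP2*, a Jun dimerization partner that represses AP-1 sites, rose to 4.55 CPM in KSRi, against 0.622 CPM in DMSO (log2 change 2.81, SE 0.22, edgeR adjusted p = 7.71e-08). The DMSO value of *JDP2* rests on 14 to 30 counts per library. In NT *JDP2* averaged 17.1 CPM, so its KSRi level lay between the control groups. *MAFK* (−0.45, SE 0.10) and *BATF3* (−0.38, SE 0.12) fell, and *MAFF*, named after its values were seen, rose (0.38, SE 0.14). The 19 tested further immediate early genes had a median of 0.32, with 7 called higher and 2 lower. These included the antiproliferative gene *BTG2* (1.13, SE 0.12), *IER5* (0.62, SE 0.11) and *KLF4* (2.46, SE 0.46), of which *KLF4* was at 0.527 CPM in KSRi and 0.0979 CPM in DMSO. The 2 that fell, named after their values were seen, were *EGR3* (−0.91, SE 0.29) and *TRIB1* (−0.91, SE 0.25). *EGR3* averaged 0.4 CPM in KSRi and 0.712 CPM in DMSO.

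The median log2 change was near 0 for the lists of upstream factors, kinases and AU-rich decay regulators. It was 0.21 for the T-cell activation list and −0.37 for the heat stress list. Among 9 tested factors that drive immediate early promoters, *ELK3*, a ternary complex factor, fell (−0.28, SE 0.10), and 8 did not pass the test, with *MEF2D* at 0.21 (SE 0.09) and *MRTFA* at 0.19 (SE 0.08). Of 15 kinases of the ERK, JNK and p38 routes 3 rose and 2 fell, with a median of 0.02. *MAPK3*, which encodes ERK1, changed by 0.85 (SE 0.13), *MAP2K2*, which encodes MEK2, by 0.32 (SE 0.06) and *MAP2K6*, an activator of p38, by −0.42 (SE 0.08). Of 10 regulators of AU-rich mRNA decay the deadenylase gene *CNOT7* fell (−0.31, SE 0.06) and 9 did not pass, among them *ZFP36L1* at 0.31 (SE 0.12) and *CNOT1* at −0.12 (SE 0.07). Of 7 tested T-cell activation genes *CD69* (0.49, SE 0.11) and *TNFAIP3* (0.21, SE 0.06) rose, and *IL2RA* at 1.44 (SE 0.58) did not pass. Of 8 tested heat stress genes, which also respond to handling, 4 fell and 1 rose, with *HSPH1* at −0.88 (SE 0.08), *HSP90AA1* at −0.78 (SE 0.12) and *HSPE1* at −1.10 (SE 0.17). Summed, the heat stress list stood at 4842 to 5169 CPM in KSRi, against 7494 to 8355 CPM in DMSO, and its part in the changes of the set was not tested.

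**Figure D3:**
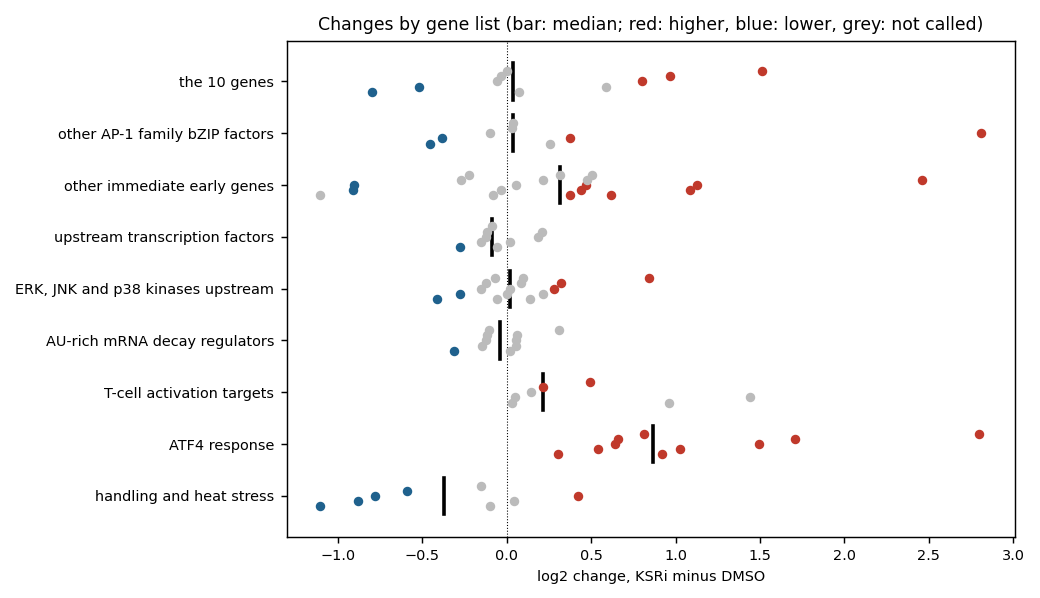
Log2 change, KSRi minus DMSO (horizontal axis), of each tested gene, by list, with the list's median as a bar. The 10 genes spread from −0.80 to 1.51 around a median of 0.04, and all 10 ATF4 response genes lie above 0.

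The comparison of the KSR2 guides with NT asked whether loss of the *KSR2* transcript moved the set. Averaged over both guides, 0 of 10 genes passed the edgeR test, where 0.0158% of all tested genes were called. At an unadjusted p under 0.05 there were 2 of 10 genes, *JUN* and *EGR1*, against 4.16% of all genes. With DESeq2 and limma-voom 0 of 10 were called as well, and by edgeR 0 genes were called in each of the other lists described above. With guide 1 alone 0 of 10 were called (0.00527% of all genes) and with guide 2 alone 0 of 10 (0.0105%). The 95% interval of the log2 change for both guides was −0.29 to 0.64 for *FOS* and −0.57 to 0.49 for *FOSB*, and the intervals of the other 8 genes lay between −0.51 and 0.15.

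*JUN* had the largest deviation. It had 8.2, 8.63 and 8.79 CPM with guide 1 and 9.53, 9.47 and 9.04 CPM with guide 2, against 11.7 and 11 CPM in NT. All 6 guide libraries lay below both NT libraries. The libraries of both guides and NT did not overlap for 2 of 10 genes, *JUN* and *JUNB*, and for 9.56% of all genes. For guide 1 alone that was 4 of 10 (27.1% of all genes) and for guide 2 alone 4 of 10 (21.1%), all below NT. The log2 change was −0.34 (SE 0.08, 95% interval −0.51 to −0.17) and the edgeR adjusted p = 0.901. For guide 1 alone it was −0.41 (SE 0.09) and for guide 2 alone −0.28 (SE 0.09), and the guides share the NT libraries. *EGR1* had 15.6, 15.6 and 15.1 CPM with guide 1 and 10.9, 13.2 and 13.1 CPM with guide 2, against 17.1 and 15.3 CPM in NT. With guide 2 all libraries lay below NT (log2 change −0.38, SE 0.11, edgeR adjusted p = 1), and with guide 1 they overlapped (−0.07, SE 0.11). Between the guides *EGR1* differed by −0.31 (guide 2 minus guide 1, SE 0.10, edgeR adjusted p = 1), with guide 2 below guide 1 in every library. *JUN* lay above without overlap in the same comparison (0.13, SE 0.08), and non-overlap held for 10.2% of all genes. *JUNB* had 14.4, 14.5 and 14.4 CPM with guide 1 and 15, 14.9 and 11.8 CPM with guide 2, against 15.9 and 16.1 CPM in NT, without overlap (log2 change −0.18, SE 0.09, edgeR adjusted p = 0.989).

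The other 7 genes had log2 changes from −0.16 (*JUND*) to 0.18 (*FOS*) for both guides. *JUND* averaged 57.6 ± 1.69 CPM with guide 1 and 60.6 ± 2.55 CPM with guide 2 (SD, n = 3 each), against 66.1 ± 7.72 CPM in NT (SD, n = 2). *ATF3* averaged 24.3 ± 2.53 CPM with guide 1 and 24.4 ± 2.21 CPM with guide 2, against 26 ± 1.83 CPM in NT. *NR4A1* averaged 7.49 ± 0.332 CPM with guide 1 and 7.25 ± 0.297 CPM with guide 2, against 7.69 ± 0.0803 CPM in NT. *FOSL2* averaged 4.88 ± 0.458 CPM with guide 1 and 4.63 ± 0.34 CPM with guide 2, against 4.95 ± 0.00849 CPM in NT. *IER2* averaged 66.8 ± 1.37 CPM with guide 1 and 69 ± 4.08 CPM with guide 2, against 73.6 ± 3.83 CPM in NT. *FOS* averaged 0.845 ± 0.0806 CPM with guide 1 and 0.868 ± 0.146 CPM with guide 2, against 0.749 ± 0.138 CPM in NT, and *FOSB* 1.24 ± 0.479 CPM with guide 1 and 1.48 ± 0.271 CPM with guide 2, against 1.4 ± 0.114 CPM in NT. The median log2 change of the set was −0.12 with guide 1 and −0.09 with guide 2, where the medians over all genes were 0.00 for both. Both medians of the set rest on the same NT libraries, so they are not independent. Between the guides 0 of 10 genes passed by edgeR or DESeq2, where 0.00527% of all tested genes were called, and 1 of 10 had an unadjusted p under 0.05, against 3.24% of all genes.

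**Figure D4:**
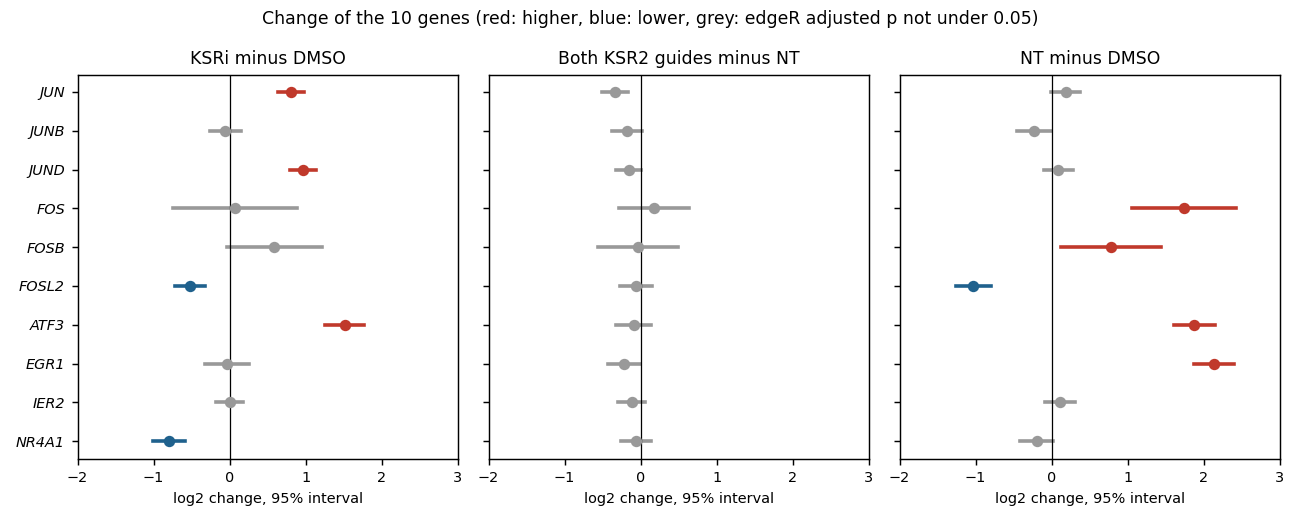
Log2 change (points) with its 95% interval (lines) of the 10 genes in 3 comparisons, on a shared axis. With the inhibitor 3 genes are higher and 2 lower, with both guides 0 of 10 pass the test, and between the control groups *EGR1*, *ATF3* and *FOS* are the farthest above 0 in NT.

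The inhibitor effect was then set against the guide effect in one contrast, which uses a separate control for each. The difference passed the test for 5 of 10 genes, where 28.6% of all tested genes passed, with 3 higher (16.6% of all genes) and 2 lower (12.1%). It was 1.602 (SE 0.16, edgeR adjusted p = 2.53e-06) for *ATF3*, 1.14 (SE 0.11, edgeR adjusted p = 2.32e-06) for *JUN* and 1.13 (SE 0.11, edgeR adjusted p = 2.65e-06) for *JUND* on the log2 scale. It was −0.74 (SE 0.13, edgeR adjusted p = 0.00075) for *NR4A1* and −0.46 (SE 0.14, edgeR adjusted p = 0.018) for *FOSL2*. For *EGR1* it was 0.19 (95% interval −0.17 to 0.54) and did not pass. The *FOSL2* call was lost when either NT library was left out (edgeR adjusted p = 0.0651 without NT replicate 1 and 0.0687 without NT replicate 2).

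The control groups, NT and DMSO, differed from each other at several of these genes, and genetic handling and culture cannot be told apart in that comparison. *EGR1* averaged 16.2 ± 1.27 CPM in NT (SD, n = 2) and 3.7 ± 0.379 CPM in DMSO (SD, n = 3), so that NT was 4.39-fold higher (log2 2.14, SE 0.13, edgeR adjusted p = 2.51e-10). *ATF3* averaged 26 ± 1.83 CPM in NT and 7.08 ± 0.143 CPM in DMSO, 3.67-fold (log2 1.88, SE 0.13, edgeR adjusted p = 1.75e-09), so that its level in KSRi, 20.2 ± 3.22 CPM (SD, n = 3), lay between the control groups. *FOS* averaged 0.749 ± 0.138 CPM in NT and 0.216 ± 0.0786 CPM in DMSO, 3.33-fold (log2 1.74, SE 0.32, edgeR adjusted p = 0.000155). *FOSL2* went the other way, at 4.95 ± 0.00849 CPM in NT and 10.1 ± 0.367 CPM in DMSO (log2 −1.03, SE 0.11, edgeR adjusted p = 2.70e-07), and its KSRi level of 7.07 ± 0.174 CPM also lay between the control groups. *FOSB* was higher in NT by 0.78 on the log2 scale (SE 0.31, edgeR adjusted p = 0.0375), a call lost without either NT library or without DMSO replicate 1 or 2, with adjusted p from 0.067 to 0.138. *JUN*, *JUNB*, *JUND*, *IER2* and *NR4A1* did not pass, at −0.23 to 0.18. In all 5 of 10 genes were called against 65.8% of all tested genes, 4 higher in NT (34.6% of all genes) and 1 lower (31.2%). Libraries of NT and DMSO did not overlap for 9 of 10 genes, as for 79.3% of all genes. All 10 ATF4 response genes were higher in NT than in DMSO (median log2 2.35), 6 of 7 tested T-cell activation genes were higher (median 1.48), and 7 of 8 tested heat stress genes were lower (median −1.93). For *JUN* and *JUND*, the KSRi means of 17.4 ± 0.909 and 121 ± 10.1 CPM were above every DMSO and every NT library, and for *NR4A1* the KSRi mean of 5.04 ± 0.436 CPM was below every one of them.

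The genes with the most similar level profile were sought for *JUN*, *EGR1* and *ATF3* over the 5 group means (centred log2 CPM) among 11062 genes of at least 5 CPM. Nearest to *JUN* were *GOT1*, *XYLT1* and *MAP3K3*, with root mean square differences of 0.0803, 0.0805 and 0.0811. Nearest to *EGR1* were *PCGF3-AS1*, *TLCD3B* and *HERPUD1* (0.0974, 0.11 and 0.112), and nearest to *ATF3* were *GPT2*, *APOLD1* and *KLHL24* (0.0429, 0.0613 and 0.0627). The 3 genes nearest to *EGR1* had centred means of −1.27 to −1.11 in KSRi and DMSO and 0.664 to 0.914 in the guide-arm groups. Their likeness to *EGR1* is thus mainly the split between the arms, which mixes transduction, culture and handling. In every case the likeness rests on 5 points that share their libraries.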

How the data were processed

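The authors deposited whole-number counts per Ensembl gene for 14 libraries, not normalized. Per the submitters' processing notes, the tools were STAR 2.7.11b and DESeq2 1.42.1, with GRCh38 as the build. Counter, strandedness and annotation version: not given in the sources used here. Of 61541 genes 25747 had 0 counts everywhere, and symbols were found for 61369 identifiers. Positions and exon lengths are those of GENCODE (GRCh38), promoters those of RefSeq (GRCh38.p14).

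The fit (edgeR 4.0.16, R 4.3.3) used TMM factors, filterByExpr (18963 genes kept), 1 mean per group over all 14 libraries, quasi-likelihood F tests and Benjamini-Hochberg adjustment across the tested genes; calls were made at 0.05. With 2 libraries in NT, the spread was estimated over all groups together (common biological coefficient of variation 8.6%). KSRi libraries differed from each other more than DMSO libraries did, so the shared spread may make KSRi intervals and p-values too small. CPM values use the TMM-scaled totals. Separate cultures are not stated for the replicates, so p-values measure the spread between these libraries, which may be technical. No replicate pair agreed within sampling noise, and none were merged.

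Genes named outside the set are *KSR2*, the 3 genes with the lowest p for KSRi against DMSO in each list, and the nearest profiles; exceptions are marked. The set, the lists and the tests were chosen with earlier results of these data known. Alternatives tried: other scaling (RLE, upper-quartile), testing without the low-count filter, DESeq2 1.42.0, limma-voom (limma 3.58.1), only the groups compared, a replicate block, and each library left out. The edgeR procedure was also run on simulated counts, for KSRi against DMSO only. Each gene had the same spread in all groups there, so unequal spread between groups was not covered.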

Additional observations from a re-analysis of the deposited data

Results flagged for a closer look

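For 5 genes the inhibitor effect and the guide effect differed by edgeR's test of that difference. On the log2 scale, inhibitor effect minus guide effect, the difference was 1.6 for *ATF3*, 1.14 for *JUN*, 1.13 for *JUND*, −0.737 for *NR4A1* and −0.464 for *FOSL2*. The arms differ in agent, control and handling, which cannot be told apart.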

How the results depend on the processing

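The 5 inhibitor calls (*ATF3*, *JUND*, *JUN*, *NR4A1* and *FOSL2*) kept their direction and stayed under 0.05 in all 13 alternatives run for KSRi against DMSO, with log2 changes of 1.44 to 1.64, 0.90 to 1.03, 0.77 to 0.85, −0.88 to −0.74 and −0.55 to −0.50. When only KSRi and DMSO were fitted, *FOS* was too scarce to test. For each guide, both guides and guide 2 against guide 1, 0 of 10 genes were called in every alternative. In NT against DMSO, upper-quartile factors called 8 of 10 genes, adding *JUN*, *JUND* and *IER2*, while 12470 genes were called in all, against 12477 with TMM; they shifted the median of all genes by 0.216, and RLE by −0.00691. Leaving out 1 library gave 4 to 6 genes for the inhibitor effect minus the guide effect and 4 to 5 for NT minus DMSO. *IER2* passed for the difference of effects without KSRi replicate 1 (log2 0.23, edgeR adjusted p = 0.0448), *JUN* in NT against DMSO without DMSO replicate 1 (edgeR adjusted p = 0.0494), and *JUNB* when only NT and DMSO were fitted (−0.20, edgeR adjusted p = 0.0321). Same-numbered libraries of different groups did not deviate together (r −0.184 to 0.111, 1 of 26 pairs over 0.1). Among the groups of 3, a library correlated best with its own number in 8 of 36 cases. No pairing by number was seen, though low correlation cannot show that same-numbered libraries had no culture or batch in common. A block for the replicate number called 5 of 10 genes for KSRi, 0 for the guides, 5 for the difference of effects and 4 for NT against DMSO, where *FOSB* was lost (edgeR adjusted p = 0.0638). For comparison, the main fit called 40.7% of all tested genes for KSRi, 28.6% for the difference of effects and 65.8% for NT against DMSO.

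Over all genes, counts were 1 for guide 1, 2 for guide 2, 3 for both and 1 between the guides. Without a low-count filter they were 35, 35, 41 and 13, with DESeq2 8, 5, 7 and 2, with limma-voom 1 for both guides, and with the replicate block 2 for guide 1. Leaving out 1 library gave 1 to 5 for guide 1, 2 to 4 for guide 2, 1 to 3 for both, 1 to 2 between the guides and 3366 (without NT replicate 1) to 7377 for the difference of effects, against 5431. The cause was not tested. Depth limits *FOS* and *FOSB* most.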
